A study of Homo sapiens with 8 samples.

Results

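Stress granules are cytoplasmic assemblies of mRNA and RNA-binding proteins that form when translation initiation is blocked and polysomes run off. Arsenite, an oxidative stressor, triggers phosphorylation of the initiation factor eIF2 and is a standard way of inducing them. The mRNAs of the core granule proteins were followed here through that treatment, for 10 genes chosen by symbol among the 19964 genes with a coding transcript in the count files. G3BP1 and its paralog G3BP2 are the RNA-binding proteins that nucleate the granules. CAPRIN1 and USP10, a deubiquitinase, are partners that compete for binding to G3BP proteins and have opposite effects on assembly. TIA1 and TIAL1 (also called TIAR) are paralogous RNA-binding proteins with prion-like regions. FMR1, whose loss causes fragile X syndrome, and its paralogs FXR1 and FXR2 are KH-domain proteins found on polysomes and in granules. ATXN2, the polyglutamine protein of spinocerebellar ataxia type 2, binds poly(A)-binding protein.

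The study measured ribosome-protected fragments (ribo-seq) and fragmented poly(A) mRNA (mRNA-seq) in HEK293T, a human embryonic kidney line that carries the SV40 large T antigen. Cells received sodium arsenite at 40 µM, and control cells received vehicle, with harvest after 30 min. Cycloheximide was added at harvest, without pre-treatment, and both assays came from the same lysate. Each of the 4 combinations of assay and treatment has 2 replicates, which gives 8 libraries. The methods call the replicates independent biological ones, and they also differed in adapter and sequencing, so the spread between them holds both kinds of variation.

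Reads on the transcripts used numbered 1023985 to 7270582 per library in ribo-seq and 3992451 to 21715208 in mRNA-seq, with replicate 2 deeper throughout. The 10 genes together took 0.226% to 0.355% of ribo-seq reads and 0.192% to 0.221% of mRNA-seq reads. Each gene was represented by its coding transcript with the most reads on the coding sequence (CDS) in control ribo-seq, and the same transcript was obtained for all 10 genes from mRNA-seq reads. Among the cell markers, VIM, KRT8, KRT18, NEFL and NEFM had reads in all 4 mRNA-seq libraries, from 43 for KRT8 to 9008 for VIM. The blood cell marker CD3E and the melanocyte marker TYR had 0 reads in those libraries, and the other 4 markers of other cell types had at most 15.

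All 10 genes had reads in every library, not corrected for length, from 129 mRNA-seq reads for ATXN2 to 9136 for CAPRIN1 and from 83 ribo-seq CDS reads for TIA1 to 4291 for CAPRIN1. The replicates set these levels apart more than the treatment did for several genes. The plot of all 10 genes shows this for G3BP1, whose control ribosome occupancy was 882 cpm (counts scaled to library size by TMM normalization) in replicate 1 and 409 cpm in replicate 2. Changes were estimated within each replicate, and every model below holds a term for the replicate.

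**Figure D1:**
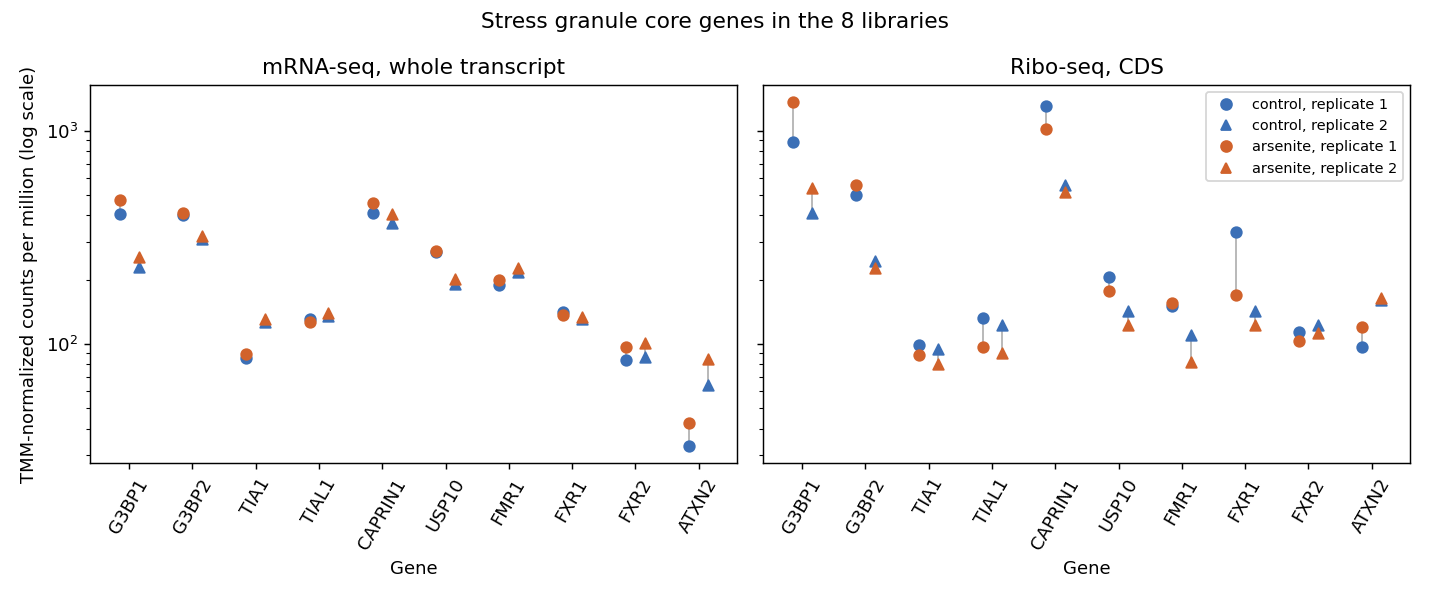
TMM-normalized cpm (log axis) of the 10 stress granule genes in mRNA-seq over the whole transcript and in ribo-seq over the CDS. Each point is 1 library, coloured by treatment and shaped by replicate, and a line joins control and arsenite of a replicate. Levels are not divided by transcript length, so genes are not to be ranked by height. Occupancy lay above control in both replicates for 2 genes, G3BP1 among them, and below it for 6, FXR1 among them.

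In control cells CAPRIN1, ATXN2 and both G3BP mRNAs were translated more efficiently than the bulk of mRNAs. Translation efficiency (TE) in control was taken as ribo-seq CDS reads over mRNA-seq CDS reads of the same transcript, so that CDS length cancels, and is given on the log2 scale relative to the bulk of mRNAs. CAPRIN1 had the highest TE of the 10 at 1.50 ± 0.33 (SE, n = 2 per assay), which is 2.83 times the bulk. Each SE given here comes from the edgeR fit, which shares variance information across genes. It is not the spread of the 2 replicates of that gene. G3BP1 followed at 1.32 ± 0.30, ATXN2 at 1.25 ± 0.30 and G3BP2 at 0.91 ± 0.29. These 4 of 10 genes lay above the bulk in edgeR's quasi-likelihood test (Benjamini-Hochberg adjusted p = 0.00796, 0.00925, 0.0121 and 0.0413), against 8.36% of 10611 genes called higher and 21.9% called in either direction. Without the replicate term none of the 4 was called, and at a minimum mean count of 50 G3BP2 was not (adjusted p = 0.0657, edgeR). The values come from bulk lysates, so TE is an average over cells. For the levels in each assay, fewer expressing cells and less RNA per cell cannot be told apart.

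The levels of control TE ranged over the remaining 6 genes from 0.80 ± 0.30 for TIA1 (adjusted p = 0.0672 in the same edgeR test) to −0.32 ± 0.29 for USP10 (adjusted p = 0.447). USP10 and FMR1 (−0.06 ± 0.29) were the 2 genes with a TE below the bulk, and neither passed the test. The G3BP partners CAPRIN1 and USP10 stood at opposite ends of the order, with 95% intervals that did not overlap (0.78 to 2.22 and −0.94 to 0.30). Between neighbours in that order, no pair differed by more than the sum of their standard errors. Median TE of the 10 genes was 0.72, beside 0.01 for all genes tested.

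Among paralogs, G3BP1 and G3BP2 were both called higher, TIA1 and TIAL1 (0.26 ± 0.29) had overlapping 95% intervals, and so had FMR1, FXR1 (0.64 ± 0.34) and FXR2 (0.41 ± 0.29). FXR1 was the least reproducible, with 1.27 in replicate 1 and 0.03 in replicate 2. CAPRIN1 also varied, from 1.95 to 1.05, whereas G3BP1 (1.23 and 1.41) and FXR2 (0.39 and 0.43) were close.

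**Figure D2:**
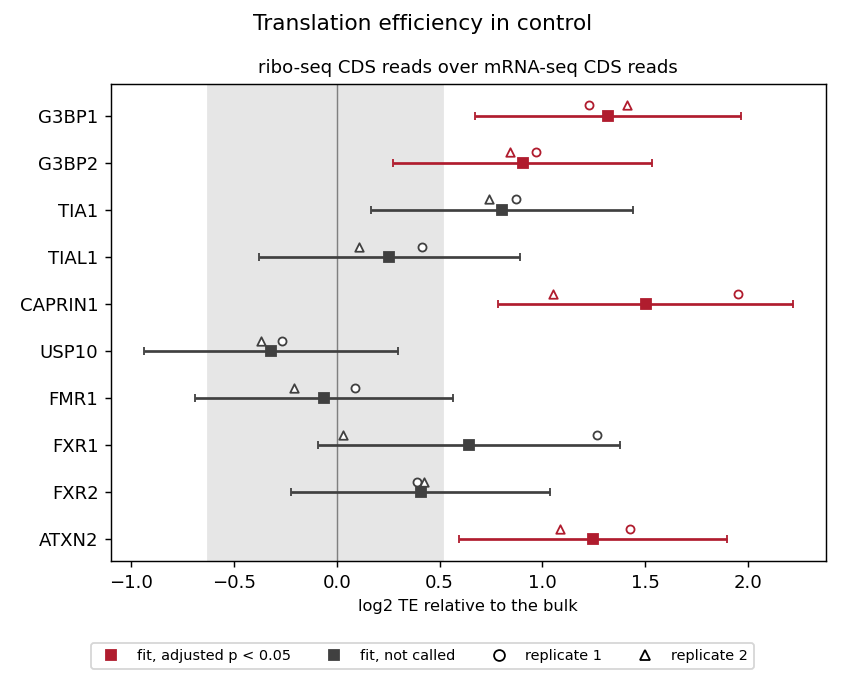
TE in control cells (log2, relative to the bulk of mRNAs) of the 10 genes. Squares are the fitted values with 95% intervals, circles and triangles the values in replicates 1 and 2, and the grey band the range from lower to upper quartile of all genes tested. CAPRIN1, G3BP1, ATXN2 and G3BP2 (red) passed an adjusted p of 0.05.

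Arsenite was compared with control first at the mRNA level. ATXN2, FXR2, G3BP1 and CAPRIN1 mRNA rose relative to the bulk of mRNAs, by 1.11 to 1.32 times. These are 4 of 10 genes called higher, against 3.75% of 12598 genes called higher and 5.75% called in either direction. ATXN2 mRNA was 33.2 and 63.9 cpm in control and 42.4 and 84.7 cpm in arsenite, for replicates 1 and 2. The groups overlapped across replicates, but arsenite was above control within each. Its log2 change was 0.40 ± 0.07 (SE, edgeR's quasi-likelihood test, adjusted p = 1.35e-06), with 0.35 in replicate 1 and 0.41 in replicate 2, and it stood at percentile 98.1 of all changes.

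FXR2 mRNA was 84.2 and 86.6 cpm in control and 96.9 and 101 cpm in arsenite. It was the only one of the 4 genes for which both arsenite libraries lay above both control libraries, and its log2 rise was 0.22 ± 0.06 (adjusted p = 0.0119 in the same edgeR test). G3BP1 mRNA was 408 and 229 cpm in control and 471 and 255 cpm in arsenite, a rise of 0.18 ± 0.05 (adjusted p = 0.0151, edgeR). Here replicate 1 exceeded replicate 2 under both treatments, by more than arsenite exceeded control. CAPRIN1 mRNA was 410 and 367 cpm in control and 455 and 408 cpm in arsenite, a rise of 0.15 ± 0.05 (adjusted p = 0.0466, edgeR).

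The other 6 mRNAs had estimates between 0.02 (FXR1) and 0.06 (FMR1), and none passed the test (adjusted p from 0.596 to 0.915, edgeR). Paralogs gave unlike values, with 0.03 for G3BP2 beside 0.18 for G3BP1, and 0.02 for FXR1 beside 0.22 for FXR2, but the difference between paralogs was not tested. For these 6 genes the upper ends of the 95% intervals lay between 0.13 and 0.17. All 10 estimates were above 0 (9 with CDS reads alone or without the replicate term), as were 47.8% of all genes, and 8 of the 10 were above 0 in both replicates. The median was 0.06, beside −0.01 for all genes tested.

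The mRNA calls depended on the method and on the reads counted. Without the replicate term edgeR called 0 of the 10 genes, with 0 at an unadjusted p below 0.05. DESeq2 with that term also called 0, with 3 at an unadjusted p below 0.05 and no adjusted p for ATXN2. With mRNA-seq reads of the CDS alone, ATXN2 was the 1 gene still called. The share of mRNA-seq reads on the 3′ UTR differed between replicates, at 28.4% and 27.9% (control and arsenite) in replicate 1 and 47.0% and 46.0% in replicate 2 for the 10 genes together. For all genes it was 26.8% and 26.2% in replicate 1 and 36.5% and 36.4% in replicate 2. In G3BP1 it went from 18.2% to 49.5% between the control replicates, and the part of this in the mRNA values was not tested.

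Ribosome occupancy, the ribo-seq reads on the CDS, was compared next. No gene of the 10 was called, against 2.80% of 10291 genes, while 3 of the 10 and 17.6% of all genes had an unadjusted p below 0.05 (edgeR's quasi-likelihood test) and DESeq2 also called 0. Of these 3, G3BP1 had a positive estimate, and FXR1 and TIAL1 had negative ones. All values are relative to the bulk, and a fall shared by most mRNAs is removed by the normalization. A gene near 0 thus kept its place among mRNAs, and spike-in reads were not used here.

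G3BP1 occupancy was 882 and 409 cpm in control and 1360 and 540 cpm in arsenite (1527 and 3144 reads against 1277 and 1763). Arsenite lay above control in both replicates, though the replicates themselves were farther apart than the treatments. The log2 change was 0.51 (95% interval 0.14 to 0.89, adjusted p = 0.128, edgeR), with 0.63 in replicate 1 and 0.40 in replicate 2. G3BP2 moved less, with 498 and 245 cpm in control and 558 and 226 cpm in arsenite, and its change of 0.02 had opposite signs in the replicates.

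FXR1 occupancy was 333 and 143 cpm in control and 169 and 123 cpm in arsenite, so that the groups overlapped. It had the lowest change of the 10 at −0.58 (95% interval −0.99 to −0.17, adjusted p = 0.12, edgeR), and this came mostly from replicate 1 (−0.97 against −0.22 in replicate 2). With the minimum mean count raised to 50, FXR1 was called lower (adjusted p = 0.0383, edgeR). That setting called 581 of 7382 genes in either direction, in place of 288 of 10291. TIAL1 occupancy was 132 and 123 cpm in control and 96.9 and 90.4 cpm in arsenite, and here both arsenite libraries lay below both control libraries. Its change was −0.45 (95% interval −0.85 to −0.05, adjusted p = 0.227, edgeR), with −0.44 in replicate 1 and −0.45 in replicate 2.

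CAPRIN1 occupancy was 1300 and 558 cpm in control and 1020 and 517 cpm in arsenite. FXR2 had 113 and 123 cpm against 103 and 112 cpm, and ATXN2 96.5 and 161 cpm against 120 and 163 cpm. The mRNA rises of CAPRIN1 and FXR2 were thus accompanied by occupancy estimates below 0 (−0.23 and −0.13), and those of G3BP1 and ATXN2 (0.15) by estimates above 0. The remaining genes TIA1, USP10 and FMR1 lay between −0.20 and −0.22, with FMR1 split between 0.05 in replicate 1 and −0.43 in replicate 2.

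TE change is the change in ribo-seq CDS reads beyond that in mRNA-seq reads. It was below 0 for 9 of the 10 genes (8 under upper-quartile normalization), beside 51.4% of all genes. None of the 10 passed the test. The 0 calls of 10 compare with 2.12% of 10273 genes called in either direction, so the count does not stand apart from the background. At an unadjusted p below 0.05 there were 4 genes (edgeR's quasi-likelihood test), namely TIAL1, CAPRIN1, FXR1 and FXR2, all with negative estimates, beside 21.2% of all genes, and DESeq2 called 0 with 0 at that unadjusted level. The median of the 10 was −0.28 (−0.22 in replicate 1 and −0.29 in replicate 2), beside −0.01 for all genes. Negative values in both replicates were found for 8 of the 10 genes and for 31.7% of all genes.

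G3BP1 was the exception, and the only gene with a positive TE change in both replicates (0.42 and 0.25). TE changes are relative to the bulk, and the paper reports a strong general repression of translation in arsenite. A value above 0 thus need not be a rise in absolute TE, and values below 0 leave out the shared fall. Its fitted change was 0.33 ± 0.15 (SE; 95% interval −0.01 to 0.67, adjusted p = 0.246, edgeR), at percentile 80 of all genes. Its paralog G3BP2 had −0.01 (95% interval −0.37 to 0.34), a sign that turned positive under upper-quartile normalization. ATF4, a known mRNA of the stress response that is translated when eIF2 is phosphorylated, gives the scale. Its TE change was 2.28 ± 0.29 (adjusted p = 0.0102, edgeR), from 314 and 197 cpm of occupancy in control to 971 and 1290 cpm in arsenite.

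FXR1 had the lowest TE change at −0.56 ± 0.22 (95% interval −1.05 to −0.06, adjusted p = 0.191, edgeR), with −0.92 and −0.26 in the replicates. TIAL1 followed with −0.46 ± 0.15 (adjusted p = 0.131, edgeR), and its replicates were close at −0.40 and −0.49. CAPRIN1 (−0.38 ± 0.15), FXR2 (−0.35 ± 0.15), FMR1 (−0.29 ± 0.18), USP10 (−0.27 ± 0.15), ATXN2 (−0.27 ± 0.16) and TIA1 (−0.26 ± 0.15) lay within a narrow range (adjusted p from 0.196 to 0.385, edgeR). For ATXN2 and FMR1 the value came mostly from replicate 2, with −0.03 and −0.01 in replicate 1. The estimates of the G3BP partners CAPRIN1 and USP10 had the same sign.

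**Figure D3:**
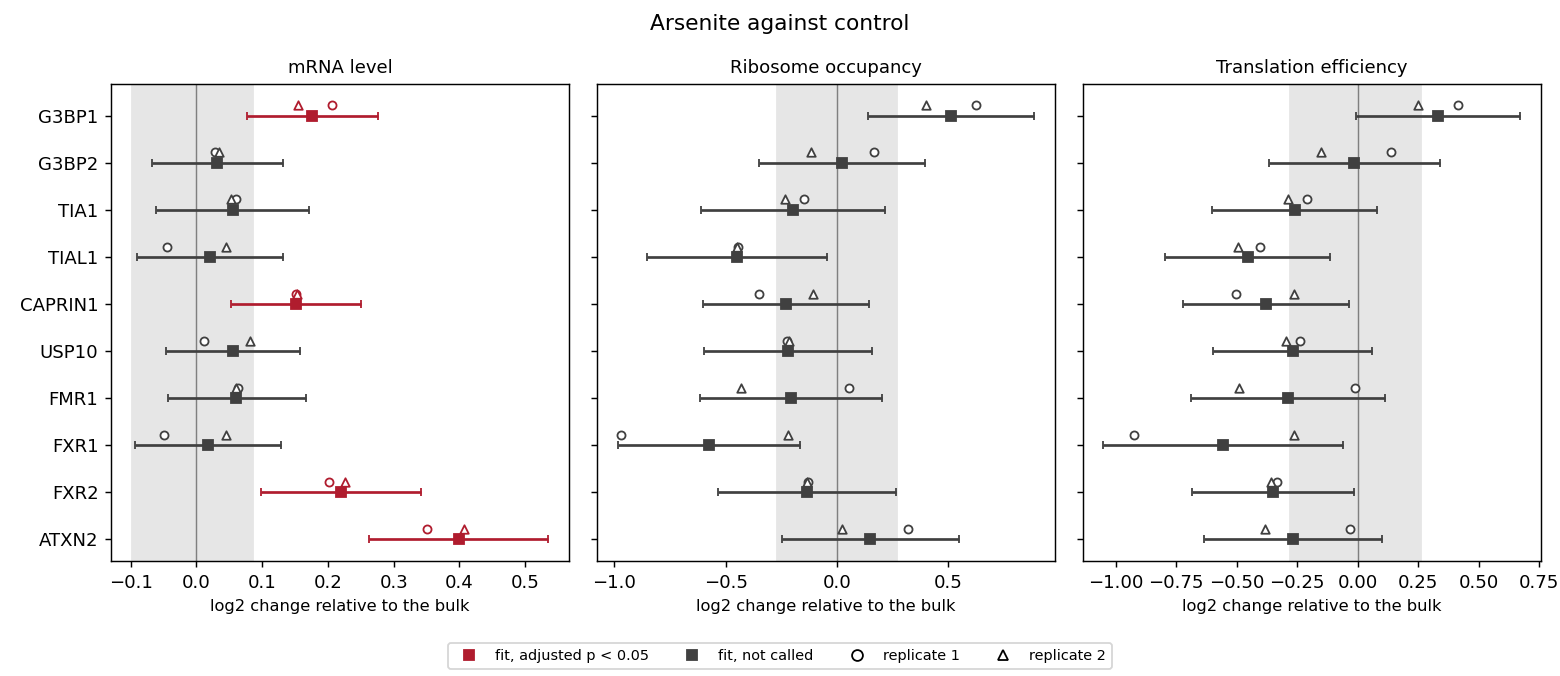
Log2 changes in arsenite against control, relative to the bulk of mRNAs, for mRNA level, ribosome occupancy and TE of the 10 genes. Squares are the fitted values with 95% intervals, circles and triangles the values in replicates 1 and 2, and grey bands the range from lower to upper quartile of all genes tested. Each panel has its own horizontal scale. The 4 genes called in mRNA (red) rose by at most 0.40, and in TE only G3BP1 lay above 0 in both replicates.

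As a further description, each gene was placed among 300 genes of like depth by a Z-score within each replicate, the measure used in the study, for which 4 is the threshold. Both replicates were scaled here by total reads, whereas the study scaled replicate 2 by spike-in reads, so the Z-scores are not those of the study. No gene of the 10 passed the threshold in mRNA level, occupancy or TE, and few of all genes did. In replicates 1 and 2 these were 9 of 12383 and 24 of 14680 genes in mRNA level. They were 5 of 9927 and 13 of 11612 in occupancy, and 7 of 9912 and 10 of 11598 in TE. The absence of the 10 genes thus does not set them apart. ATXN2 came nearest, with a Z-score of mRNA change of 1.76 in replicate 1 and 3.55 in replicate 2. For TE the 10 genes ranged from −2.22 (FXR1) to 1.19 (G3BP1) in replicate 1 and from −1.48 to 1.04 (G3BP1) in replicate 2. ATF4 had TE Z-scores of 4.17 and 8.12.

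Ribosomes on the 5′ leader, where upstream open reading frames can hold them, took a larger share of reads in arsenite. For the 10 genes together, the leader's share of leader and CDS reads was 0.136% before and 0.413% after arsenite in replicate 1, and 0.892% before and 1.80% after it in replicate 2. The shares of replicate 1 rest on 9 leader reads before and 15 after arsenite. Those of replicate 2 rest on 146 and 123, of which TIAL1 alone held 54 and 44. Over all genes the shares were 0.399% before and 0.496% after in replicate 1, and 0.802% and 1.54% in replicate 2, so the direction was that of all genes. TIAL1, G3BP1 and FXR2 averaged 10 or more leader reads and could be tested for a shift of reads from CDS to leader. None was called, against 0.151% of 661 genes, and 1 had an unadjusted p below 0.05 (edgeR's quasi-likelihood test), as did 29.8% of all genes. This shift was not run in DESeq2.

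TIAL1 had the largest estimate of the 3. Control libraries held 3 and 54 TIAL1 leader reads and arsenite libraries 3 and 44, while the CDS held 229 and 949 reads in control but 91 and 295 in arsenite. Library totals were lower in arsenite, so these reads are compared as shares. The leader share was 1.29% (95% Wilson interval 0.441 to 3.73) and 5.38% (4.15 to 6.96) in control, and 3.19% (1.09 to 8.97) and 13.0% (9.81 to 17.0) in arsenite. The intervals, which cover counting error only, did not overlap in replicate 2 and overlapped in replicate 1. The shift was 1.38 ± 0.36 on the log2 scale (adjusted p = 0.0893, edgeR), with 1.33 and 1.39 in the replicates, beside a median of 0.80 for all genes tested. G3BP1 (0.93 ± 0.47) and FXR2 (0.86 ± 0.47) were close to that median.

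**Figure D4:**
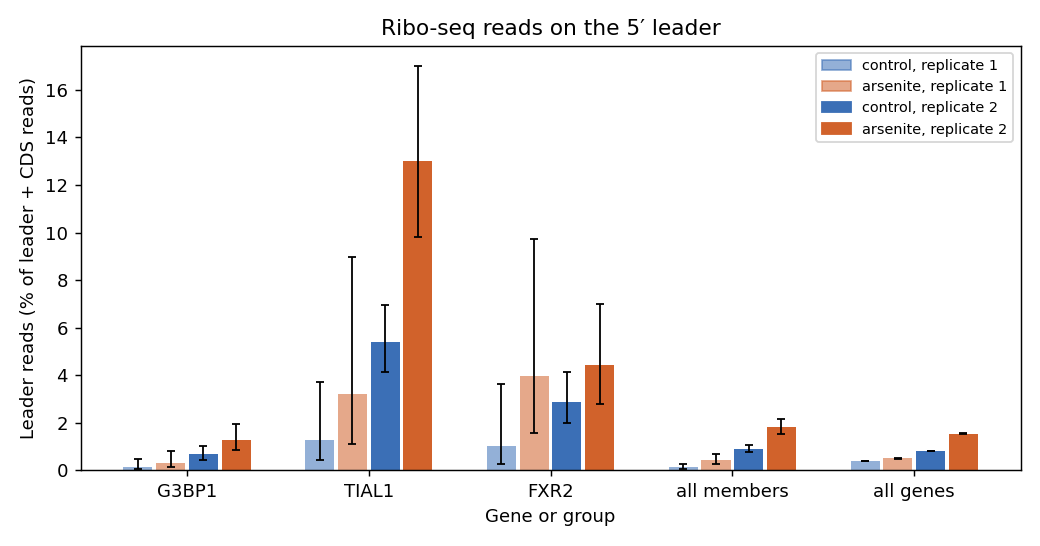
Share of ribo-seq reads on the 5′ leader, in percent of leader and CDS reads, for G3BP1, TIAL1 and FXR2, for the 10 genes together and for all genes. Bars are single libraries and error bars 95% Wilson intervals of counting error. The TIAL1 bar of arsenite replicate 2 stands at 13.0%, against 5.38% in its control.

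The FXR1 transcript used here has 0 reads on its leader in every ribo-seq library. Another coding transcript of FXR1, annotated with a later CDS start, holds nearly as many reads and counts those before that start as leader. There lay 8 of 575 reads (1.39%, 95% Wilson interval 0.707 to 2.72) and 117 of 1097 (10.7%, 8.97 to 12.6) in control, and 7 of 160 (4.38%, 2.14 to 8.75) and 82 of 400 (20.5%, 16.8 to 24.7) in arsenite. As a ratio, the control replicates were farther apart than control and arsenite within either replicate. The treatment intervals were apart in replicate 2 and overlapped in replicate 1. This split was chosen after its values were seen, and no like split was made over other genes, so it is given as a description.

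A list of 50 other stress granule components gave the background of the pathway. In mRNA level 12 of 50 rose and 0 fell, with a median of 0.09, where 3.75% of all genes were called higher. In TE 4 of 49 fell and 0 rose, where 1.10% of all genes were called lower, with a median of −0.14, between that of the 10 core genes and that of all genes. PABPC1, the cytoplasmic poly(A)-binding protein, fell by 1.58 on the log2 scale (SE 0.22, adjusted p = 0.0147, edgeR's quasi-likelihood test). YBX1, a cold-shock domain protein that packages mRNA, fell by 0.79 (adjusted p = 0.0328, edgeR), and ELAVL1, an AU-rich element binding protein named after its value was seen, fell by 0.71 (adjusted p = 0.0493, edgeR). In ribosome occupancy 3 of 49 fell, PABPC1 and YBX1 among them, and 0 rose, where 1.35% of all genes were called lower. No TE estimate among the 10 core genes was as low as those of PABPC1, YBX1 and ELAVL1. These 3 were named because of their TE falls and do not stand for the list. The median TE change of the list (−0.14) was above that of the core genes (−0.28). The list was also high in control TE, where 16 of 49 were called higher and 2 lower with a median of 0.57, beside 8.36% and 13.6% of all genes. All calls of this list come from the edgeR fit with the replicate term. They were not counted in DESeq2 or without that term. In mRNA level those 2 settings called 86 and 0 of 12598 genes, in place of 725.

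Components of processing bodies, the RNA granules of mRNA decapping and decay, were described in the same way. Of the 29 tested from a list of 30, 3 rose in mRNA level and 0 fell, where 3.75% of all genes were called higher. In TE 0 were called and 8, beside 21.2% of all genes, had an unadjusted p below 0.05 (edgeR's quasi-likelihood test, not counted for the list in DESeq2), and the median was 0.10, above 0 where that of the core genes was −0.28. In control TE, 1 was called higher (the RNA helicase DDX6, at 2.76) and 5 lower, beside 8.36% and 13.6% of all genes, with a median of −0.12 beside 0.72 for the core genes. The calls of this list were likewise not counted in DESeq2 or without the replicate term. Whether the lists differ was not tested.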

How the data were processed

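Raw read counts per RefSeq transcript were deposited for 8 libraries, with separate counts for the leader, the CDS and the 3′ UTR. The authors removed adapters with cutadapt, set aside spike-in and rRNA reads, aligned to RefSeq transcripts with Bowtie 1.0.0 and discarded reads mapping to more than 1 gene, so that reads shared by paralogs are not counted. The genes and lists were chosen with earlier results of these data known. They were all 10 core genes, ATF4, and, per list and direction, at most 3 genes whose TE change was largest among those called with 1 sign in both replicates. Symbols of the lists were matched through RefSeq synonyms. Of the genes this rule names, 1 is not reported here.

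Changes were tested with edgeR 4.0.16 (R 4.3.3) by the quasi-likelihood test with TMM normalization, on genes averaging 10 or more counts, with Benjamini-Hochberg adjustment over all genes tested and a threshold of 0.05. mRNA level used whole-transcript reads, occupancy CDS reads, and TE the interaction of assay and treatment over 8 libraries. The leader shift used ribo-seq library totals in place of TMM. It is the change of leader reads relative to CDS reads of the same gene, not relative to the bulk of mRNAs. Replicate entered as a block because adapter, sequencing and scaling differed between replicates. Deviations of same-numbered libraries from group means correlated at 0.709 (mRNA-seq, 12598 genes) and 0.69 (ribo-seq, 10291 genes). Within-replicate values took a prior count of 0.5, and Z-scores bins of 300 genes with at least 2 normalized reads. As alternatives, DESeq2 1.42.0, upper-quartile scaling, other count minimums, other transcripts and read regions, no block, and each replicate alone were tried. Scripts were tested on simulated data. Intervals of shares were computed with scipy 1.17.1, tables with pandas 2.3.3 and numpy 2.4.6 in Python 3.11.15, and figures with matplotlib 3.10.9.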

Additional observations from a re-analysis of the deposited data

How the results depend on the processing

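With 2 replicates, leaving out either left values without a test. Without the replicate block, 0 core genes were called in mRNA level or control TE, in place of 4 in each, and 0 genes of the series in mRNA level, occupancy or TE, in place of 725, 288 and 218 (control TE 377 in place of 2329). DESeq2 called 0 core genes in mRNA level (G3BP1 adjusted p = 0.363) and 86 genes of the series (occupancy 54, TE 114). CDS mRNA-seq reads gave 1 core gene and 243 genes in mRNA level, and 81 in TE. At a mean of at least 50 counts, 1 core gene (FXR1) was called lower in occupancy, against 0 core genes before. That occupancy fit called 581 of 7382 genes in either direction. With the same minimum, G3BP2 lost its call in control TE (adjusted p = 0.0657, edgeR), and TE gave 135 genes and control TE 1541. CAPRIN1 mRNA lost its call under upper-quartile normalization (adjusted p = 0.0666, edgeR) and with no filter (0.0667). Occupancy gave 477 genes with upper-quartile normalization and 538 without a filter, TE 466 without a filter and 0 with 1 block shared by both assays, and the leader shift 32 without a filter. The cause was not tested. Estimates near 0 changed sign without a call. The TE change of G3BP2 was −0.013 and became 0.001 with upper-quartile normalization, 0.004 at a mean of at least 50 counts, 0.016 with CDS mRNA-seq reads, 0.042 without the replicate block and 0.009 with the shared block. The mRNA change of FXR1 became −0.002 without the block, and that of TIAL1 −0.006 with CDS reads. The negative TE estimates numbered 8 or 9 of 10 in every alternative fit of TE. Replicate 1 had fewer reads, so that its leader shares have wide intervals.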
